A study of Rattus norvegicus with 4 samples.

Results

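Transcripts of 10 feedback genes of the mitogen-activated protein kinase (MAPK) pathways were followed in HSC-T6 cells, an immortalised rat line of hepatic stellate cells, the liver cells that lay down collagen in fibrosis. They were taken by gene symbol from a table of 32883 genes and comprise the phosphatase genes Dusp1, Dusp4, Dusp5, Dusp6 and Dusp7, the Sprouty genes Spry1, Spry2 and Spry4, the Sprouty-related gene Spred1 and the transcription factor gene Etv4. All 10 stood on 1 gene identifier each and were abundant enough to be tested, as were 12316 genes of the table. The groups were 2 libraries of cells given ginsenoside RK1, a saponin of processed ginseng that the labels write as GRK1 (not the receptor kinase gene of that name), and 2 libraries of cells with no treatment. All came from the same line as total RNA, and neither dose, nor duration, nor vehicle is stated. Whether replicate libraries stem from independent cultures is not in the labels, and the p-values therefore describe library-to-library spread that could be purely technical.

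Growth factor receptors activate RAS, RAF and MEK in turn, and MEK activates the kinase ERK by phosphorylating it on a threonine and a tyrosine. Dual specificity phosphatases remove both phosphates, while Sprouty and Spred proteins act higher up, between the receptor and RAF. Most of these genes are themselves transcribed when ERK is active, so that their transcripts are often read as a record of ERK output. Dusp1 differs in that it is also induced by stress and glucocorticoids and its protein acts strongly on the stress kinases p38 and JNK. The comparison therefore sets the ERK feedback genes against Dusp1.

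Promoter sequences are shown for Dusp1 and Dusp5, the genes whose transcripts rose with GRK1, and for Dusp7, the most abundant phosphatase transcript of untreated cells, which did not pass the test. Each is the 250 bases before the RefSeq start of the gene in assembly GRCr8, plus strand, 5′ to 3′. The windows are chr10:17184603-17184852 for Dusp1, chr1:262543524-262543773 for Dusp5 and chr8:115887841-115888090 for Dusp7. Capitals mark matches, on either strand, to TGACG, to ACGTG and to the CArG box. TGACG is the half-site of the cyclic AMP response element, and the CArG box is bound by serum response factor. ACGTG is a form of the core bound by hypoxia-inducible factors, whose other form, GCGTG, was not searched for. GCGTG, read on either strand, stands unmarked in the Dusp5 and Dusp7 windows.
Dusp1: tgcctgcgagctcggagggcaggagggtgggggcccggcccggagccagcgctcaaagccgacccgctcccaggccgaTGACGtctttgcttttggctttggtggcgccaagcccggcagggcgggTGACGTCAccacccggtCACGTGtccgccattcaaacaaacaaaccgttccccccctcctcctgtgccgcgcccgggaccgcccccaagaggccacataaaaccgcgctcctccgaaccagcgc
Dusp5: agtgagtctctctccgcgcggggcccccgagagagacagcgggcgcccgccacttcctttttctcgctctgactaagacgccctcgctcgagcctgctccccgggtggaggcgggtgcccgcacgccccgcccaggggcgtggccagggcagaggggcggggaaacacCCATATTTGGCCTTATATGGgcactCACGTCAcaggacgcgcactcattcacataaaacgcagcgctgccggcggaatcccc
Dusp7: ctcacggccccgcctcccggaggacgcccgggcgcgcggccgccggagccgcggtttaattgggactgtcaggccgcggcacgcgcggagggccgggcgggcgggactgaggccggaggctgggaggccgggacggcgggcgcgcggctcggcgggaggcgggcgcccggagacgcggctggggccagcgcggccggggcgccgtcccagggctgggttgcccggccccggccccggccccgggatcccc
The Dusp1 window held 3 matches to TGACG, of which 2 overlapped as inverted copies 117 to 124 bases before the start. It also held 2 matches to ACGTG that overlapped on opposite strands 102 to 107 bases before the start. Those 2 are the opposite strands of the same palindrome, CACGTG, and so mark 1 site. In the Dusp5 window 2 CArG boxes lay end to end 63 to 82 bases before the start, followed by 1 match to ACGTG and 1 to TGACG that shared 3 bases. The Dusp7 window held no match to any of these motifs, which says only that those letters are not in this window. Among all 33469 RefSeq windows of that length, 18.2% held TGACG, 16.6% held ACGTG and 1.5% held a CArG box. RefSeq windows were matched for 8 of the 10 genes, and those of Dusp4 and Etv4 were not used here. Of the other matched genes, Spry2 had TGACG in 1 of its 2 windows and ACGTG in the other, and Spry1, Spry4, Spred1 and Dusp6 had neither and no CArG box. A further motif, CGGAA, the core bound by ETS factors, occurred in 26.1% of all windows, and in those of Dusp5, Dusp6, Spry2, Spry4 and Spred1. These matches are descriptions of sequence and do not show that a site is used.

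Of the 10 genes, Dusp1 and Dusp5 rose with GRK1 and 0 fell in edgeR's test. At an unadjusted p under 0.05 the number lower was 1, Spry4, and it was 0 by DESeq2 and 1 by limma-voom after adjustment. Across the table, 11.5% of tested genes rose and 10.5% fell in the same test (22.0% in all), so 2 of 10 is close to the background. The counts were tested by the quasi-likelihood method of edgeR, with p-values adjusted over all tested genes by the Benjamini-Hochberg method and a threshold of 0.05. Their log2 fold changes ran from -0.53 to 0.79 with a median of 0.05, against a median of 0.00 over all tested genes. Values did not overlap between the groups for 4 of the 10, namely Dusp1, Dusp5, Spry1 and Spry4, while 63.0% of all tested genes had groups that did not overlap. Counts measure a gene's share of the library, so fewer cells expressing a gene and less of its RNA per cell cannot be told apart.

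**Figure D1:**
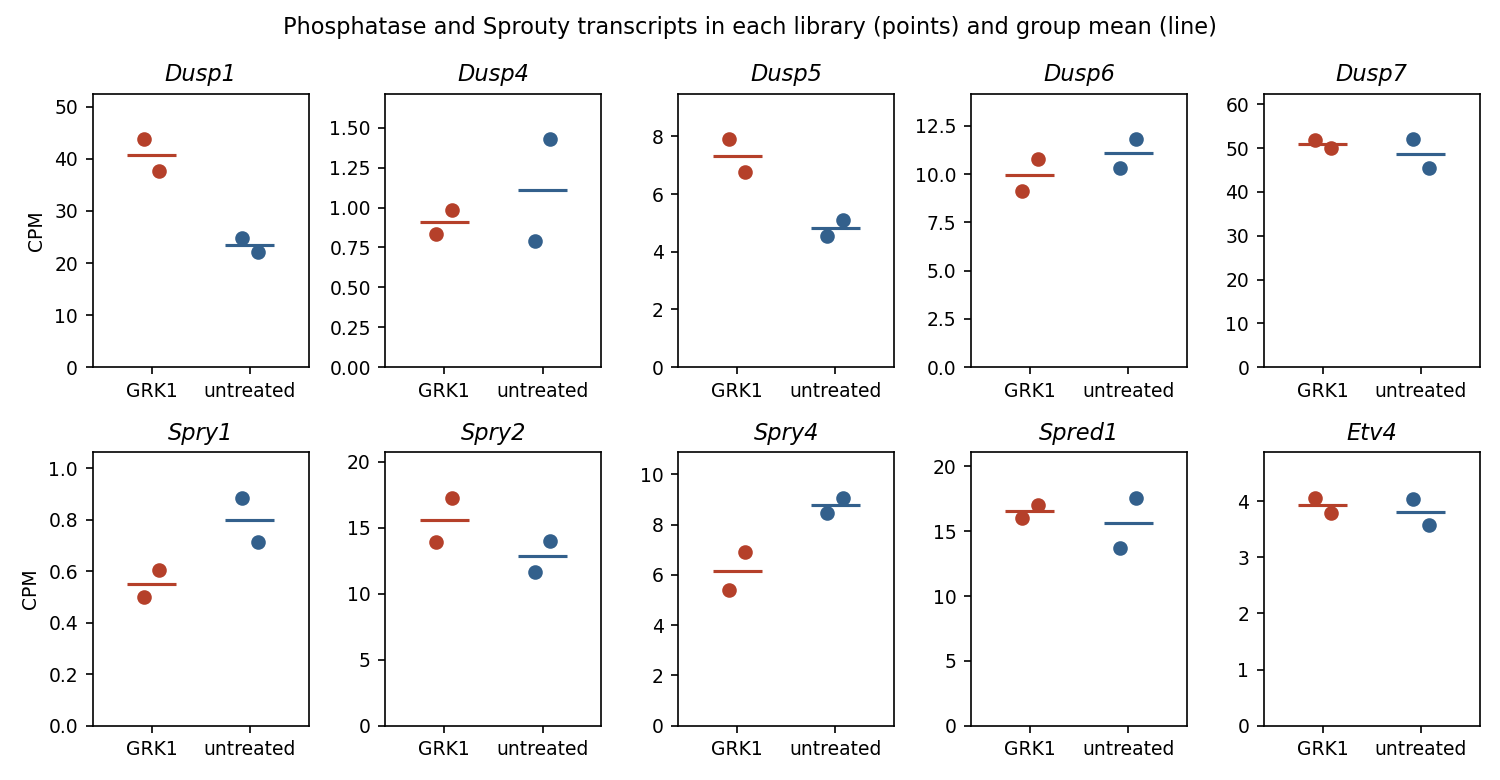
CPM (counts scaled to library size) of the 10 genes in each of the 4 libraries (points) with the group mean (line), GRK1 left and untreated right, with a separate vertical scale from 0 for each gene. The GRK1 points of Dusp1 and Dusp5 lie above both untreated points, those of Spry1 and Spry4 lie below, and the groups of the other genes overlap.

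Dusp1 encodes a nuclear phosphatase of p38, JNK and ERK and is an immediate-early gene. It lies on chromosome 10 at 16970626 to 16973418 of Rnor_6.0, plus strand. It was at 43.8 and 37.7 CPM (counts scaled to library size) in the GRK1 libraries (787 and 687 counts), against 24.8 and 22.2 CPM in the untreated libraries (504 and 404 counts). Both GRK1 libraries were above both untreated libraries, and the gap between the groups was larger than the distance within either. Dusp1 rose 1.73-fold (log2 fold change 0.79 ± 0.09 SE, 95% interval 0.57 to 1.01, adjusted p = 0.0013). Its rise passed the test under all 13 alternative analyses, with adjusted p from 5.0e-07 to 0.0048.

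The other nuclear phosphatases in the set are Dusp4 and Dusp5. Dusp5 acts on ERK alone among the MAPKs and holds it in the nucleus. The gene is on chromosome 1 at 274245184 to 274258595, plus strand. It was at 7.90 and 6.75 CPM in GRK1 libraries, against 4.53 and 5.11 CPM in untreated libraries, so the groups did not overlap. Dusp5 rose 1.52-fold (log2 fold change 0.60 ± 0.16 SE, adjusted p = 0.031). The call did not hold by DESeq2 (adjusted p = 0.15), nor without GRK1 replicate 1 (adjusted p = 0.13), untreated replicate 1 (adjusted p = 0.13) or untreated replicate 2 (adjusted p = 0.072), and the fold change stayed positive in each. Dusp4, which acts on ERK and JNK, was near the limit of measurement, with 15 and 18 counts in GRK1 libraries against 16 and 26 counts in untreated libraries. Its groups overlapped and its fold had a 95% interval of 0.451 to 1.53, so a moderate change in either direction was not detectable at this depth. Dusp4 lies on chromosome 16 at 61078175 to 61091169, minus strand.

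Dusp6 and Dusp7 encode the cytoplasmic phosphatases that act mainly on ERK, and Dusp6 is the textbook transcript that follows ERK activity. Dusp6, on chromosome 7 at 41475163 to 41479392, plus strand, was at 9.13 and 10.8 CPM in GRK1 libraries, against 10.3 and 11.8 CPM in untreated libraries. The groups overlapped, and the difference did not pass (0.901-fold, log2 fold change -0.15 ± 0.13 SE, adjusted p = 0.45). The 95% interval of the Dusp6 fold ran from 0.729 to 1.11. Dusp7, on chromosome 8 at 115069095 to 115076130, plus strand, was at 51.8 and 50.0 CPM in GRK1 libraries, against 52.1 and 45.4 CPM in untreated libraries. Both GRK1 values fell between those of the untreated libraries. With the most counts of the 10 genes, Dusp7 also had the narrowest interval, from 0.928-fold to 1.17-fold (log2 fold change 0.06 ± 0.07 SE, adjusted p = 0.59).

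The Sprouty genes encode membrane-associated inhibitors of signalling from receptor tyrosine kinases to ERK, and they differed among themselves in sign. Spry4, on chromosome 18 at 32594958 to 32609864, plus strand, was at 5.40 and 6.91 CPM in GRK1 libraries, against 8.47 and 9.07 CPM in untreated libraries. Its groups did not overlap, and the difference narrowly missed the threshold (0.703-fold, log2 fold change -0.51 ± 0.15 SE, adjusted p = 0.053). It passed in 7 of 13 alternative analyses, with adjusted p from 0.026 to 0.21 over all of them, and was called lower without GRK1 replicate 2 (adjusted p = 0.030). Spry2, on chromosome 15 at 90172975 to 90175802, minus strand, was at 13.9 and 17.3 CPM in GRK1 libraries, against 11.6 and 14.0 CPM in untreated libraries. The groups overlapped slightly and the difference did not pass (log2 fold change 0.29 ± 0.14 SE, adjusted p = 0.19). The annotated span of Mycbp2, on the same strand, overlaps that of Spry2 in the deposited table, so reads shared by both annotations could have been dropped. Whether the exons overlap was not checked. Spry1, on chromosome 2 at 124400679 to 124405331, plus strand, had 9 and 11 counts in GRK1 libraries against 18 and 13 counts in untreated libraries. Those counts allow a fold anywhere from 0.379 to 1.26 at 95%, and the difference did not pass (adjusted p = 0.34).

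Spred1 and Etv4 showed the smallest log2 fold changes of the 10 besides Dusp7. Spred1, on chromosome 3 at 108795235 to 108857556, plus strand, encodes a protein that brings the RAS inhibitor neurofibromin to the membrane. It was at 16.0 and 17.0 CPM in GRK1 libraries, against 13.7 and 17.6 CPM in untreated libraries, with both GRK1 values inside the untreated range (log2 fold change 0.08 ± 0.13 SE, adjusted p = 0.70). Etv4, on chromosome 10 at 89685058 to 89700283, minus strand, encodes an ETS factor of the PEA3 group whose transcription follows FGF and ERK signalling. It was at 4.06 and 3.79 CPM in GRK1 libraries, against 4.04 and 3.57 CPM in untreated libraries, which overlapped (log2 fold change 0.04 ± 0.18 SE, adjusted p = 0.90). The 95% intervals of the fold ran from 0.859 to 1.30 for Spred1 and from 0.773 to 1.37 for Etv4.

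**Figure D2:**
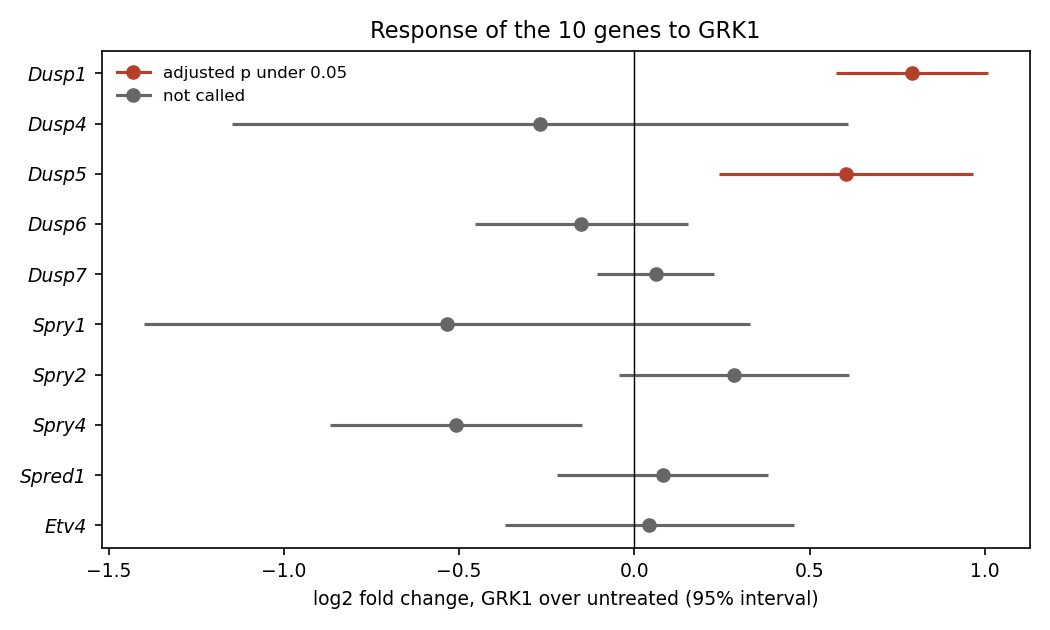
Log2 fold change of each gene, GRK1 over untreated (points), with its 95% interval before adjustment for the number of genes tested (lines). Dusp1 and Dusp5 (red) passed at an adjusted p under 0.05, and the interval of Spry4 lies below 0 although its adjusted p was 0.053.

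The ratio of Dusp1 to each of the other 9 genes was then taken within each library, which removes any scaling of the library. The log2 ratio of Dusp1 to Dusp6 was 2.26 and 1.80 in GRK1 libraries, against 1.26 and 0.91 in untreated libraries, a difference of 0.95 or 1.93-fold. Against Dusp7 the log2 ratio was -0.24 and -0.41 in GRK1 libraries, against -1.07 and -1.03 in untreated libraries, a difference of 0.73. The difference was 1.31 against Spry4, 0.51 against Spry2, 0.70 against Spred1 and 0.75 against Etv4. Against the low-count genes Spry1 and Dusp4 it was 1.32 and 1.02. Dusp5 stood closest to Dusp1, with log2 ratios of 2.47 and 2.48 in GRK1 libraries, against 2.45 and 2.12 in untreated libraries and a difference of 0.19. Some of these differences rested on 1 library. That to Dusp5 was 0.36 without untreated replicate 1 and 0.022 without untreated replicate 2, and that to Dusp4 was 1.53 and 0.51 in the same cases. The difference to Spred1 was 0.96 without untreated replicate 1 and 0.44 without untreated replicate 2, and that to Spry2 was 0.25 without GRK1 replicate 1 and 0.78 without GRK1 replicate 2. For all 9 pairs the ratio was higher in both GRK1 libraries than in either untreated library, but all 9 share the Dusp1 values. The rise of Dusp1 by itself raises any such ratio, and the share of all tested genes with a higher ratio was not computed. The count is therefore not a result about the other 9 genes. The exact two-sided permutation test over libraries gave p = 0.333 for each pair, also after adjustment over the 9 pairs, which is the smallest p that 2 libraries against 2 allow. The 95% interval of Dusp1's log2 fold change began at 0.57. That was above the upper ends for Spry4 (-0.15), Dusp6 (0.15), Dusp7 (0.23), Spry1 (0.33), Spred1 (0.38) and Etv4 (0.46). It was below those for Spry2 (0.61), Dusp4 (0.61) and Dusp5 (0.97). These are separate intervals before adjustment, each from 2 libraries against 2, and comparing their ends does not test a difference between genes.

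Levels were compared between genes as TPM, which divide counts by the exon length in the table and then scale each library to the same total. In untreated libraries the order of mean level was Dusp7 (28.4 TPM), Dusp1 (22.2), Spred1 (17.4), Spry2 (12.9), Dusp6 (7.34), Dusp5 (3.63), Spry4 (3.36), Etv4 (2.98), Spry1 (0.587) and Dusp4 (0.508). Within that order, Dusp5 and Spry4 overlapped, as did Spry1 and Dusp4, and the other neighbours did not. In GRK1 libraries Dusp1 came first, at 38.6 ± 3.7 TPM (SD, n = 2), and Dusp7 followed at 29.9 ± 0.46 TPM (SD, n = 2). Etv4 (3.09 TPM) then stood above Spry4 (2.38 TPM), and Spry1 (0.407 TPM) and Dusp4 (0.420 TPM) again overlapped.

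The summed level of the 5 phosphatase transcripts was 83.8 and 78.3 TPM in GRK1 libraries, against 64.4 and 59.7 TPM in untreated libraries. Dusp1 made up 49.2% and 45.9% of that sum in GRK1 libraries, against 36.3% and 35.0% in untreated libraries. The other 4 phosphatases together were at 42.6 and 42.4 TPM in GRK1 libraries, against 41.0 and 38.8 TPM in untreated libraries. Of the 19.0 TPM by which the mean sum was higher with GRK1, 16.4 TPM was Dusp1. The sum leaves out the MAPK phosphatase genes Dusp2, Dusp8, Dusp9, Dusp10 and Dusp16. Those together were at 27.9 and 27.6 TPM in GRK1 libraries, against 31.0 and 31.6 TPM in untreated libraries. The summed level of the 3 Sprouty genes was 16.4 and 20.8 TPM in GRK1 libraries, against 15.6 and 18.1 TPM in untreated libraries, and these overlapped.

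**Figure D3:**
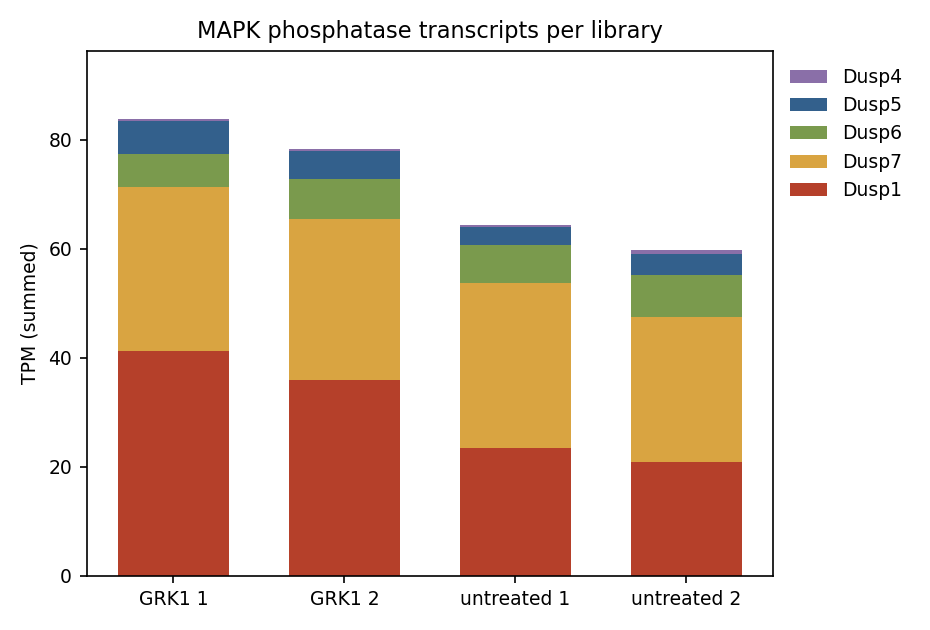
Stacked bars of TPM of the 5 phosphatase transcripts in each library, GRK1 left and untreated right. The red part, Dusp1, is 41.2 and 36.0 TPM in the GRK1 libraries and 23.4 and 20.9 TPM in the untreated libraries.

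Outside the members of the set, 7 lists of MAPK pathway genes were read from the same fit. Beside the counts of every list stand the shares over all tested genes, of which 22.0% passed in edgeR, 11.5% higher and 10.5% lower. In the list of other MAPK phosphatases 0 of 4 tested genes passed in edgeR, DESeq2 or limma-voom, and 1, Dusp16, had an unadjusted p under 0.05 in edgeR. All 4 had negative log2 fold changes: Dusp16 (-0.21 ± 0.08 SE, adjusted p = 0.099), Dusp9 (-0.87 ± 0.39 SE), Dusp8 (-0.27 ± 0.19 SE) and Dusp10 (-0.01 ± 0.14 SE). Negative values were also found for 6122 of the 12316 tested genes. Dusp9 had only 8 and 17 counts in GRK1 libraries, against 27 and 22 counts in untreated libraries. The sign of Dusp10 turned positive without GRK1 replicate 2 (0.16) or untreated replicate 2 (0.018). Dusp8, Dusp10 and Dusp16 encode phosphatases that prefer JNK and p38, the kinases on which Dusp1 also acts. Dusp2 had at most 1 count in any library and was not tested. Among the other Sprouty, Spred and PEA3 genes 0 of 5 passed in edgeR, DESeq2 or limma-voom, and 1, Etv5, had an unadjusted p under 0.05 in edgeR. Etv5, a relative of Etv4 in the PEA3 group, had 270 and 330 counts in GRK1 libraries, against 421 and 379 counts in untreated libraries (-0.33 ± 0.10 SE, adjusted p = 0.065), and was called lower in 3 of 13 alternatives, namely without GRK1 replicate 2, with robust dispersions and with a replicate block. Spred2 (0.13 ± 0.10 SE), Spry3 (-0.16 ± 0.15 SE) and Etv1 (-0.13 ± 0.33 SE) did not pass.

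The transcripts that commonly follow ERK output went both ways. Of 18 tested, 4 rose and 5 fell, against 11.5% and 10.5% of all tested genes. The log2 fold change was negative for 14 of the 18 and positive for 4, with a median of -0.31. Ier3, an early response gene, rose to 77.0 and 70.6 CPM in GRK1 libraries, against 43.4 and 43.6 CPM in untreated libraries (0.76 ± 0.06 SE, adjusted p = 2.2e-04). Ccnd1, which encodes cyclin D1, fell to 94.2 and 91.2 CPM in GRK1 libraries, against 147 and 135 CPM in untreated libraries (-0.61 ± 0.06 SE, adjusted p = 4.8e-04). The ephrin receptor gene Epha4 (-0.68 ± 0.09 SE) and Hbegf, a ligand of the EGF receptor (-0.73 ± 0.10 SE), also fell. Egr1 and Fos, immediate-early factors named here after their values were seen, did not pass (adjusted p = 0.26 and 0.36). Egr1 was at 32.1 and 61.2 CPM in GRK1 libraries, against 53.0 and 78.3 CPM in untreated libraries, so it differed more within each group than between the group means. In both groups the library with the higher Dusp1 had the lower Egr1. The number that rose was 1 without GRK1 replicate 2, and 2 without GRK1 replicate 1, untreated replicate 1 or untreated replicate 2, while 5 or 6 fell in each. By DESeq2 1 rose and 5 fell.

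The kinases and adaptors from receptor to ERK changed little in size. Of 22 tested, 7 rose and 0 fell, against 11.5% and 10.5% of all tested genes. Their log2 fold changes ran from -0.03 to 0.32 with a median of 0.11. In edgeR 0 were lower at an unadjusted p under 0.05, and 0 fell by DESeq2 or limma-voom. Map2k1, which encodes MEK1, was at 183 and 186 CPM in GRK1 libraries, against 153 and 144 CPM in untreated libraries (0.32 ± 0.05 SE, adjusted p = 0.0038). The adaptor Shc1 (0.27 ± 0.05 SE) and the repressor Cic (0.25 ± 0.05 SE), which silences PEA3 genes until ERK releases it, rose too. The count of risen genes was 3 by DESeq2 and without GRK1 replicate 2, untreated replicate 1 or untreated replicate 2, and 4 with upper-quartile scaling. In the JNK and p38 cascade 2 of 15 rose and 0 fell, against 11.5% and 10.5% of all tested genes, with a median of 0.15. In that list 0 were lower in edgeR at an unadjusted p under 0.05 or by DESeq2 or limma-voom. The entry annotated as Map3k7, the gene symbol of the kinase TAK1, had 244 and 259 counts in GRK1 libraries against 52 and 18 counts in untreated libraries (2.94 ± 0.32 SE, adjusted p = 9.3e-04). This entry lies on chromosome 9 at 114022137 to 114079089, plus strand, and overlapping genes were looked for only at the 10 feedback genes. Its log2 fold change was 3.80 without untreated replicate 1 and 2.43 without untreated replicate 2. Map3k1 rose by less (0.91 ± 0.20 SE) and was not called by DESeq2 or without GRK1 replicate 1, untreated replicate 1 or untreated replicate 2. Mapk14, the p38 alpha gene (0.16 ± 0.05 SE, adjusted p = 0.056), and Mapk9, a JNK gene (0.17 ± 0.06 SE), did not pass. The list count was 1 by DESeq2, without untreated replicate 1 and with a floor of 5 CPM, and 3 with robust dispersions or library totals only.

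Transcripts that stress or glucocorticoid induces along with Dusp1 did not share a direction. Of 11 tested, 2 rose and 1 fell, against 11.5% and 10.5% of all tested genes, with a median of 0.03. The glucocorticoid targets Fkbp5 (0.29 ± 0.05 SE, adjusted p = 0.0077) and Per1 (0.40 ± 0.09 SE, adjusted p = 0.016) rose. Tsc22d3 (0.03, adjusted p = 0.85), Zfp36 (0.05, adjusted p = 0.70) and Sgk1 (-0.08, adjusted p = 0.28) of the same list did not pass. Those were named here after their values were seen. Jun, an AP-1 subunit, fell to 63.6 and 68.1 CPM in GRK1 libraries, against 95.7 and 91.4 CPM in untreated libraries (-0.51 ± 0.05 SE, adjusted p = 9.3e-04). Klf9 did not pass (0.20 ± 0.06 SE, adjusted p = 0.059). Per1 was not called without GRK1 replicate 1 or without untreated replicate 2, 3 rose by DESeq2, and 3 fell without GRK1 replicate 2 and 2 without untreated replicate 1. Of the FGF receptors, ligands and adaptors 0 of 9 rose and 1 fell, against 11.5% and 10.5% of all tested genes, with a median of -0.23. In that list 0 were higher in edgeR at an unadjusted p under 0.05 or by DESeq2 or limma-voom. Fgf7, a growth factor that mesenchymal cells secrete, was at 51.7 and 46.9 CPM in GRK1 libraries, against 66.4 and 71.5 CPM in untreated libraries (-0.48 ± 0.06 SE, adjusted p = 0.0024). Fgfr2 (-0.23 ± 0.09 SE), Fgfr3 (-0.24 ± 0.11 SE) and Flrt3 (-0.40 ± 0.19 SE) did not pass.

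**Figure D4:**
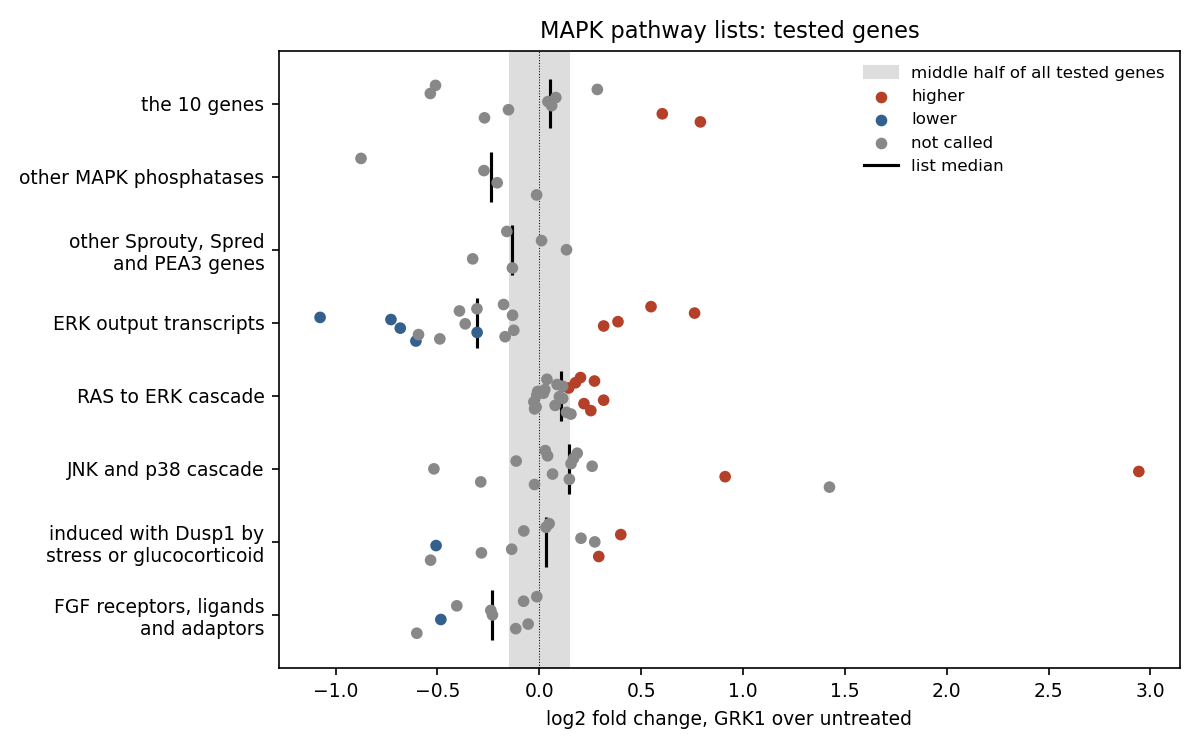
Log2 fold change, GRK1 over untreated, of every tested gene of the 10 feedback genes and the 7 lists (points, red higher, blue lower, grey not called), with the list median (black line) and the interquartile range of all tested genes (grey band). Vertical position within a list has no meaning. Dusp1 and Dusp5 are the red points of the top line, and the point farthest right is Map3k7 at 2.94.

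The genes with the most similar profile over the 4 libraries were found among tested genes that averaged 5 CPM or more, by the Euclidean distance between log2 CPM centred on each gene's mean. With 4 libraries in 2 groups, such likeness depends largely on the size of the difference between the groups. For Dusp1 the nearest were Egln1, which encodes an oxygen-sensing prolyl hydroxylase (distance 0.0518), Gpi, glucose-6-phosphate isomerase (0.0590), and Pkm, pyruvate kinase (0.0674). Their own log2 fold changes were 0.75 for Egln1, 0.81 for Gpi and 0.78 for Pkm. For Dusp6 the nearest were Slc35f2 (0.0255), Tmem70 (0.0281) and Iqce (0.0395), and 0 of these 3 passed the test.

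Library totals ranged from 18008586 to 20430930 counts, so 3 counts in a library correspond to 0.148 to 0.167 CPM. Markers of the labelled cell type ranged widely in level. Col1a1 fell to 8065 and 7969 CPM in GRK1 libraries, against 12485 and 11615 CPM in untreated libraries, whereas Acta2 was at 0.891 and 0.329 CPM in GRK1 libraries, against 3.60 and 3.08 CPM in untreated libraries. Gfap was at 1.22 and 0.658 CPM in GRK1 libraries, against 3.94 and 3.02 CPM in untreated libraries, Des was at 5.06 to 7.46 CPM in all 4, and Lrat had 0 counts in every library. Of 9 tested stellate markers 6 fell, among them Acta2 (-2.44 ± 0.39 SE) and Gfap (-1.88 ± 0.32 SE), while 10.5% of all tested genes fell. The other way went 1 marker, with a log2 fold change of 0.37, which was not called although its unadjusted p was under 0.05 in edgeR. The part of these markers in the results on the feedback genes was not tested. Of the markers of other liver cells, all 6 hepatocyte genes had at most 4 counts in any library and 3 were at 0 throughout, and 3 of 6 macrophage and 2 of 5 endothelial genes were at 0 throughout. The macrophage gene Cd68 (21 to 30 counts) and the endothelial genes Vwf (22 to 34 counts) and Tek (10 to 16 counts) were abundant enough to be tested and did not pass. Summed, the hepatocyte genes were at 0.406 and 0.584 TPM in GRK1 libraries, against 0.404 and 0.548 TPM in untreated libraries. Among 5 cholangiocyte genes only Sox9, which stellate cells can also express, was abundant enough to be tested, and it fell (-1.74 ± 0.17 SE). Summed, these 5 genes were at 1.77 and 1.61 TPM in GRK1 libraries, against 3.97 and 5.01 TPM in untreated libraries, while the defining markers Krt19 and Epcam had at most 4 counts in any library. The part of Sox9 in the results above was not tested.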

How the data were processed

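RNA sequencing libraries of HSC-T6 cells, 2 given GRK1 and 2 untreated, were grouped by the treatment label. Trizol-extracted RNA went into VAHTS Universal V6 libraries, per the labels' protocols. The authors deposited raw counts per Ensembl gene, with exon lengths and Rnor_6.0 positions per the file headers. The submitters' processing notes name HISAT2 and HTSeq. No version, strand setting or rule for reads matching several genes was given in the sources used here, and overlapping genes could lose such reads.

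Genes were filtered with filterByExpr (minimum count 10, minimum total 15) and scaled by TMM. They were tested two-sided with edgeR 4.0.16 (quasi-likelihood F-test, group as the only term, 2 residual degrees of freedom, common biological coefficient of variation 0.0593), Benjamini-Hochberg adjusted over 12316 genes. The standard error was the log2 fold change over the square root of F. CPM use TMM-scaled totals, and TPM use the deposited exon lengths over all 32883 genes. Floors and intervals cover counting error or the spread between libraries only. Replicates differed beyond sampling noise (a chi-square of 4.52 per degree of freedom for GRK1 and 4.47 for untreated), so each library was counted separately. The steps were tested on simulated data.

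The 10 genes and the lists were chosen with earlier results of these data known, so no p-value was adjusted over a list and no set test was run. Named genes were the 10, up to 4 genes a list by smallest adjusted p, and the 3 nearest in profile to Dusp1 and to Dusp6. Alternatives were DESeq2 1.42.0, limma-voom (limma 3.58.1), robust dispersions, RLE, upper-quartile and no composition scaling, other filters, a stricter threshold, a replicate block and each library left out in turn. Counting the calls of each list under these alternatives was added after seeing the data. The endothelial marker Pecam1 was not analysed here, and the values of 1 named list gene are not reported here.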

Additional observations from a re-analysis of the deposited data

How the results depend on the processing

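Over all tested genes, 2711 were called, against 1712 by DESeq2, 1226 at a threshold of 0.01 and 1710 to 2046 when 1 library was left out, the lowest being without untreated replicate 2. Of the 10 feedback genes, 2 were called, against 1 by DESeq2, 1 at the threshold of 0.01 and 1 to 3 when 1 library was left out (1 without GRK1 replicate 1, untreated replicate 1 or untreated replicate 2). Dusp1 kept its call in every alternative fit and at the threshold of 0.01. Dusp5 was not called by DESeq2 (log2 fold change 0.60), and its values without 1 library ran from 0.49 to 0.71. Spry4, not called in the main analysis, was called lower by limma-voom (-0.51), robust dispersions (-0.51), RLE scaling (-0.51), upper-quartile scaling (-0.54) and with a mean of at least 5 CPM (-0.52), and ran from -0.70 to -0.34 without 1 library. The sign of 4 uncalled genes changed when 1 library was left out, with ranges of -0.049 to 0.14 for Etv4, -0.089 to 0.26 for Spred1, -0.64 to 0.20 for Dusp4 and -0.040 to 0.17 for Dusp7. Such fits take the spread of a single remaining library from the other group. The cause of these differences was not tested.

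With the replicate number as a block 3214 genes and 3 of the 10 were called, Spry4 being added (-0.52, adjusted p = 0.034). Deviations of same-numbered libraries correlated at 0.0801 across genes, and the labels give no meaning to the number. A correlation over all genes can be low while some genes differ the same way in both groups. In both groups Dusp1 was higher in replicate 1 than in replicate 2, and Egr1 was lower. What same-numbered libraries share was not tested. Under that block 4 genes of the JNK and p38 list rose, and 4 of the stress and glucocorticoid list rose and 3 fell. Etv5, Mapk14, Klf9 and Fgfr2 were called under the block as well (adjusted p = 0.041, 0.040, 0.035 and 0.043), and Etv5 (0.033) also with robust dispersions. Spry1 and Dusp4 are limited by depth, with at most 26 counts in a library.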

Other observations

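Map2k3, which encodes a kinase that activates p38 and was picked here because of its values, had 258 and 569 counts in GRK1 libraries, against 23 and 294 counts in untreated libraries, and did not pass (log2 fold change 1.42 ± 0.81 SE, adjusted p = 0.25). Fgfr1, likewise picked, had at most 3 counts in any library, while Fgfr2 was at 20.5 and 22.2 CPM in GRK1 libraries, against 23.8 and 26.3 CPM in untreated libraries.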
